A study of Mus musculus with 12 samples.

Results

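The 8 genes described here encode RNA-binding and chromatin proteins that are abundant in embryonic and fetal cells and return in many cancers: the RNA-binding proteins Lin28a and Lin28b, the mRNA-binding proteins Igf2bp1, Igf2bp2 and Igf2bp3, the architectural chromatin proteins Hmga1 and Hmga2, and the DNA-binding protein Arid3a. They were taken as a list of names, chosen because earlier results of the same data showed Lin28a lower in KD leukaemia and Lin28b not, so the KD against KI values below are descriptions and carry no test. All 8 were found among the 41214 genes of the count tables, and all 8 were among the 13822 genes that passed the filter on low counts. The RNA came from leukaemic cells of 4 C57/BL6 mice. All of these mice carried the NUP98-HOXD13 transgene, which joins parts of a nucleoporin and a homeobox protein and leads to myelodysplasia and acute myeloid leukaemia. The 2 KD mice were homozygous for a Gfi1 knockdown allele (KD/KD), and the 2 KI mice were heterozygous for a Gfi1 knock-in allele (KI/wt). Gfi1 is a zinc finger repressor of blood progenitors. As background, the alleles of these names were made by putting a human GFI1 sequence into the mouse locus, so counts on mouse Gfi1 do not give the total dose. Age and sex of the mice, and the gate or purity of the leukaemic cells, are not given in the labels.

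In the fetal liver, Lin28b keeps the let-7 microRNAs low: Lin28 proteins bind let-7 precursors and block their maturation. Let-7 in turn represses mRNAs such as those of Hmga2, the Igf2bp proteins, Arid3a and Lin28 itself, so that loss of Lin28 after birth lets let-7 rise and closes the programme. In mice this switch accompanies the change from fetal to adult stem cells and blood lineages. The Igf2bp proteins bind and stabilise mRNAs, many of them marked by N6-methyladenosine (m6A), and Hmga2 supports the self-renewal of fetal stem cells.

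The mature microRNAs below are shown because they link the 8 genes. Capitals mark the seed, bases 2 to 8, which pairs with targets. Of the let-7 family in the RefSeq table, 10 microRNAs share the seed GAGGUAG, among them let-7a, let-7g and miR-98. MiR-125 has another seed and is a known repressor of Lin28a. The sequences are from RefSeq, build GRCm38.p6. None of the 10 let-7 or miR-98 hairpin genes in the count tables had a count in any library, and mature microRNAs are not measured by these poly(A) libraries.
mmu-let-7a-5p: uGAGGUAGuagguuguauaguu
mmu-let-7g-5p: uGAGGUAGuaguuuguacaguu
mmu-miR-98-5p: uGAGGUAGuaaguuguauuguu
mmu-miR-125b-5p: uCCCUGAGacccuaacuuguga
Lin28 proteins hold their precursor by a GGAG motif near the 3′ end of the loop, marked in capitals in the hairpin of let-7g, with that of let-7b beside it. Of 12 let-7 and miR-98 hairpins in the RefSeq table, 9 held GGAG at least once, and that of let-7b did not.
Mirlet7g: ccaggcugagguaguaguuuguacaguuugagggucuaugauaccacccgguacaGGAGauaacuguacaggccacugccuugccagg
Mirlet7b: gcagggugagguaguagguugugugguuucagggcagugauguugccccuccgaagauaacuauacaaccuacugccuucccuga

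The depth differed between libraries. Counts assigned to genes came to 11934542 and 10263454 in the KD libraries and to 4581593 and 10869534 in the KI libraries. KI replicate 1 stood apart. In that library 88.3% of reads with 1 alignment lay outside annotated genes, against 63.2% to 68.3% in the other 3, and the sum of 1691 chemosensory receptor genes, which are silent in blood, was 979 CPM (counts brought to a common total of gene counts per library, with TMM scaling factors), against 143 to 237 CPM. The 3 most abundant loci, predicted genes Gm10800, Gm10801 and Gm26870, took 19.4% and 21.2% of the gene counts in KD mice, against 39.0% and 44.4% in KI mice. For the 8 genes, the imprinted genes and the marker lists, values without KI replicate 1 are given below where they move. Because it is not known whether counting used strand, overlapping genes on opposite strands cannot be told apart. Gfi1 was at 7.22 and 1.12 CPM in KD mice, against 36.2 and 89.0 CPM in KI mice, in the direction of the labels, and its paralogue Gfi1b was at 2.48 and 2.76 CPM in KD mice, against 4.87 and 8.54 CPM in KI mice. The defining myeloid blast markers Mpo, Kit and Ptprc were at 27.0 CPM or more in every library. Of all 14 myeloid markers 6 had a negative and 8 a positive fold change. At an unadjusted p under 0.05, 1 was lower (Kit) and 1 higher (Cd34), against 8.34% and 1.29% of all genes tested. Cd34, a progenitor marker, had 68.4 and 120 CPM in KD mice, against 32.5 and 6.41 CPM in KI mice.

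Lin28a was lower in both KD mice than in both KI mice, Lin28b was high in 1 KD mouse only, and the other 6 genes did not share 1 pattern. Igf2bp2 and Hmga2 lay on the same side as Lin28a, Igf2bp3 had its highest level in the same mouse as Lin28b, and Hmga1 and Arid3a overlapped between the genotypes. Counted over the list, 3 of 8 genes had both KD libraries below both KI libraries, where 23.5% of all genes tested did so, and 0 of 8 had both above, where 14.5% did. In edgeR's quasi-likelihood test 0 of the 8 genes and 0 of all 13822 genes passed in either direction (0% called higher and 0% called lower at an adjusted p of 0.05). At an unadjusted p under 0.05, 2 of the 8 were lower and 0 higher, against 8.34% and 1.29% of all genes tested. DESeq2 called 1 of the 8, Lin28a, beside 1.05% of genes called lower and 0.0384% called higher, and limma-voom called 0. Since the list was chosen from this contrast, nothing is read from these counts.

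**Figure D1:**
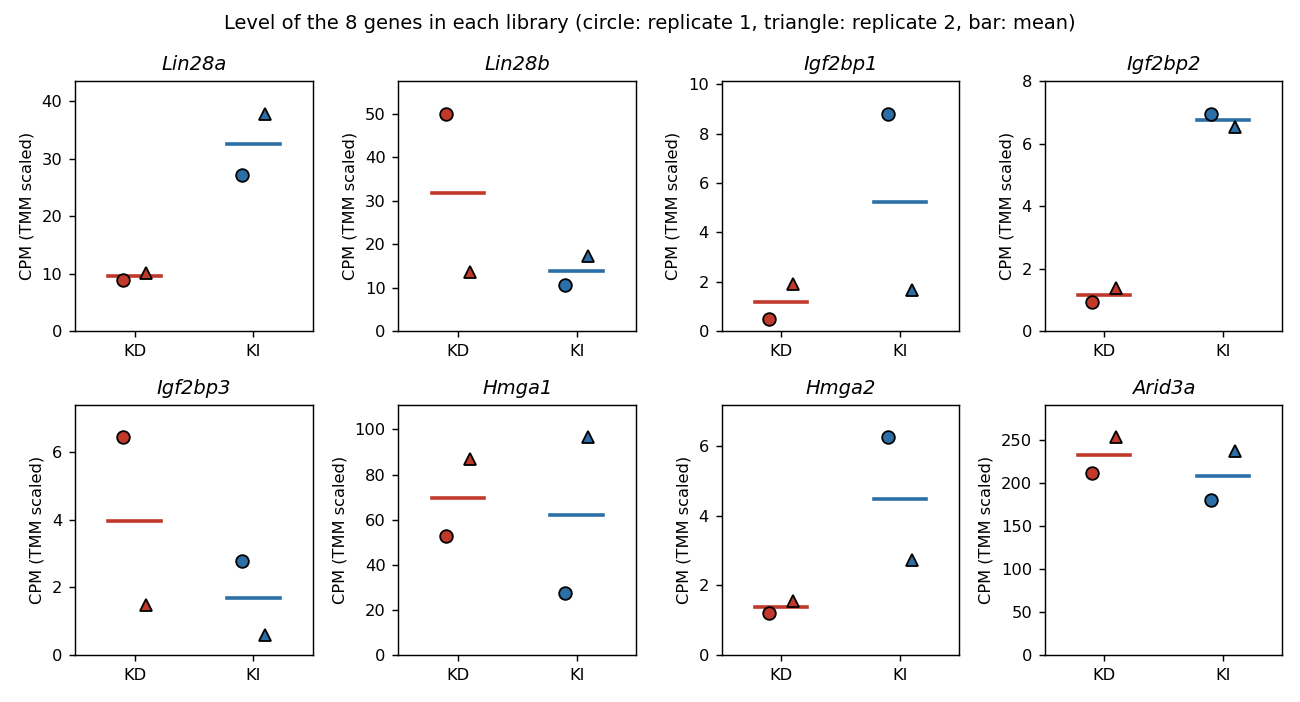
Level of each of the 8 genes in CPM scaled by TMM (y axis, from 0, each panel with its own scale) in KD and KI mice, with 1 point per library and a bar at the mean of 2 mice. Both KD points lie below both KI points for Lin28a, Igf2bp2 and Hmga2, and the KD replicate 1 point is the highest for Lin28b (50.0 CPM) and Igf2bp3 (6.44 CPM).

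Lin28a (ENSMUSG00000050966, GRCm38 chromosome 4, 134003330 to 134019196) encodes the cytoplasmic Lin28 protein, which recruits terminal uridylyltransferases to let-7 precursors. It had 8.92 and 10.2 CPM in KD mice, against 27.1 and 37.8 CPM in KI mice, from 126 and 118 counts in KD and 117 and 319 counts in KI. The groups did not overlap, and the levels within a genotype lay close together. The means were 9.55 ± 0.904 CPM in KD and 32.5 ± 7.57 CPM in KI (SD, n = 2 each). The fitted log2 fold change, KD over KI, was -1.77 ± 0.36 (SE), which is a level 3.40-fold lower in KD. It stayed between -1.87 and -1.44 when any 1 library was left out. Of all genes tested, 12.8% had a more negative fold change. No other gene of the RefSeq table overlaps the locus.

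Lin28b (ENSMUSG00000063804, chromosome 10, 45376617 to 45486314) is the paralogue best known from fetal liver blood cells. It had 50.0 and 13.6 CPM in KD mice, against 10.7 and 17.2 CPM in KI mice, from 707 and 158 counts in KD and 46 and 145 counts in KI. KD replicate 1 was the highest of the 4, while KD replicate 2 lay between the KI mice, so the groups overlapped. The means were 31.8 ± 25.7 CPM in KD and 13.9 ± 4.62 CPM in KI (SD, n = 2 each), and the log2 fold change of 1.18 ± 0.67 (SE) went to -0.03 without KD replicate 1. Leaving out KD replicate 2 gave 1.84, and leaving out KI replicate 1 or 2 gave 1.06 and 1.68. A pseudogene, Gm51827, overlaps the locus.

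The count ratio of the paralogues, on whose levels the list was chosen, was lower in both KD mice than in both KI mice. Where 1 lies in such a ratio depends on transcript length, so the side of 1 is not read. A ratio of raw counts within a library does not depend on the scaling between libraries, and transcript length cancels when the same ratio is compared across libraries. The Lin28a to Lin28b ratio was 0.178 in KD replicate 1 (95% exact binomial interval 0.146 to 0.216, counting error only) and 0.747 in KD replicate 2 (0.583 to 0.954). It was 2.54 in KI replicate 1 (1.79 to 3.66) and 2.20 in KI replicate 2 (1.80 to 2.70). The KI ratios lay within each other's intervals, whereas the KD ratios differed from each other by more than counting error. Lin28a gave 15.1% and 42.8% of the pair's counts in KD mice, against 71.8% and 68.8% in KI mice. The summed level of the pair overlapped, at 58.9 and 23.8 CPM in KD mice and 37.8 and 55.0 CPM in KI mice. With 2 mice per genotype no exact permutation test can go below p = 0.333, and none is given.

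**Figure D2:**
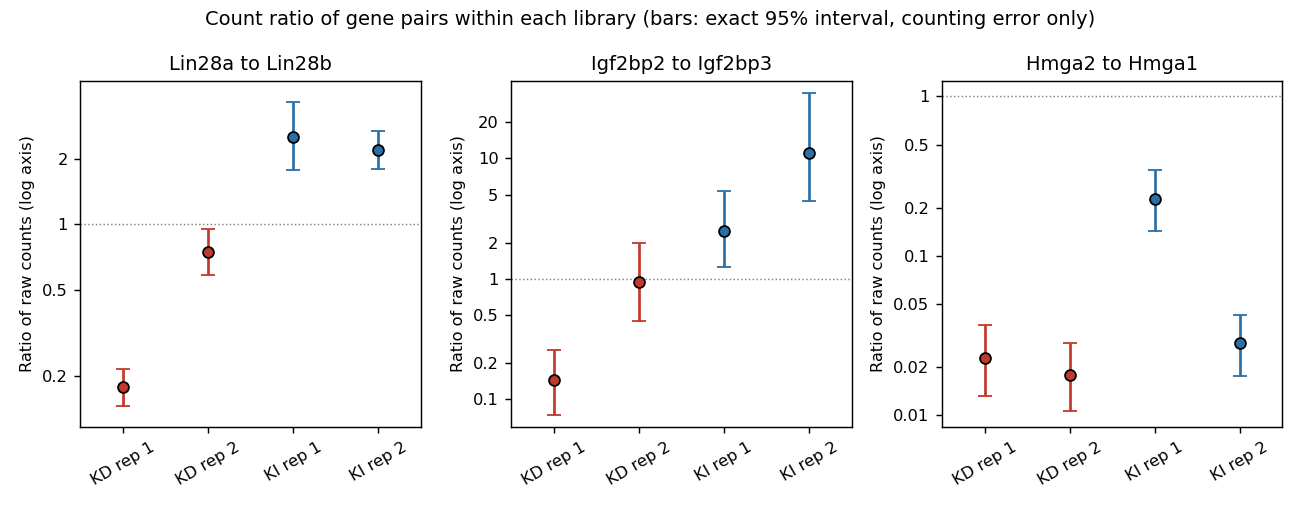
Ratio of raw counts of 2 genes within each library (y axis, log scale) for Lin28a to Lin28b, Igf2bp2 to Igf2bp3 and Hmga2 to Hmga1, with exact 95% binomial intervals that cover counting error only. The first 2 ratios are below 1 in both KD libraries and above 1 in both KI libraries, and the Hmga2 to Hmga1 ratio stands high in KI replicate 1 alone (0.227).

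The 250 bases before a RefSeq start site of Lin28a, Lin28b, Igf2bp2 and Igf2bp3 are printed below, build GRCm38.p6, on the strand of the gene. These genes were picked after their RNA values were seen, and Lin28b and Igf2bp3 overlapped between the genotypes. AATC, the core of the Gfi1 recognition sequence, is in capitals wherever it stands on either strand (as AATC or GATT). A part of Gfi1 in the levels of these genes was not tested. The Lin28a window (chr4:134018817-134019066, minus strand) held 1 match and that of Lin28b (chr10:45470202-45470451, minus strand) 6. The Igf2bp2 window (chr16:22163300-22163549, minus strand) held 0 and that of Igf2bp3 (chr6:49214955-49215204, minus strand) 3. Of 32851 promoter windows of this length 69.0% held AATC on either strand, with a median of 1 match. Bases G and C made up 61.2% of the Lin28a, 39.2% of the Lin28b, 77.2% of the Igf2bp2 and 60.4% of the Igf2bp3 window, against a median of 52.4% over all windows. The sequence GATAA, the core of GATA factor sites, was found at 2 places of the Lin28b window and not in the other 3 (22.6% of all windows hold it on either strand). CACGTG, an E-box, was found once each in Lin28b and Igf2bp3 (6.02% of all windows). No match of AATC overlapped a match of the other 2 motifs. The start sites used for Lin28a, Lin28b and Igf2bp3 lie inside the gene spans given here, so other start sites exist. The promoter table had 6 of the 8 genes, without Igf2bp1 and Arid3a. The windows not printed held 1 match of AATC for each start site of Hmga1 and 0 for Hmga2.
Lin28a: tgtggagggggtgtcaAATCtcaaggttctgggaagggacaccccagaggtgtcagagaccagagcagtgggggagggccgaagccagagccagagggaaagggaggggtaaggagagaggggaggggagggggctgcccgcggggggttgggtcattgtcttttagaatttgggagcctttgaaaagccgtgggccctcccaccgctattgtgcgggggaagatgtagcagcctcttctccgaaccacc
Lin28b: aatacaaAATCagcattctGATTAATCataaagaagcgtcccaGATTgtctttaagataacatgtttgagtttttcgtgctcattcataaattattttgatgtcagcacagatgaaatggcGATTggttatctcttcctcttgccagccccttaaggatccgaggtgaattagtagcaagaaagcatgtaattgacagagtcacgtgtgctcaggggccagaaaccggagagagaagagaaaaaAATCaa
Igf2bp2: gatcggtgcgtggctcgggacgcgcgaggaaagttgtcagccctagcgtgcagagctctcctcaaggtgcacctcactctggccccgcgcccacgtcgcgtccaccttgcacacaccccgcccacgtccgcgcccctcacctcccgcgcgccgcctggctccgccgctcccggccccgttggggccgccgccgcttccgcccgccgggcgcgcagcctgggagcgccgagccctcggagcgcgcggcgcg
Igf2bp3: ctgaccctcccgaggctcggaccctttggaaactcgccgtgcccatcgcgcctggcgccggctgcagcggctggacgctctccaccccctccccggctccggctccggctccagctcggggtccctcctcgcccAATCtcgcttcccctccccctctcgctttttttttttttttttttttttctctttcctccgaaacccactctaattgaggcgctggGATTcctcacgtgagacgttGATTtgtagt

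Among the mRNA-binding proteins, Igf2bp2 (ENSMUSG00000033581, chromosome 16, 22059009 to 22163299), the family member that adult tissues keep and a known target of Hmga2, was lower in KD. It had 0.920 and 1.38 CPM in KD mice, against 6.96 and 6.53 CPM in KI mice, from 13 and 16 counts in KD and 30 and 55 counts in KI. The groups did not overlap, and the KI libraries lay closer together than the KD libraries did in proportion. In KI replicate 1, however, 10 neural genes had a median of 5.80 CPM, and their part in the Igf2bp2 value was not tested. Without KI replicate 1 the log2 fold change of Igf2bp2 was -2.37. The log2 fold change was -2.54 ± 0.67 (SE), a level 5.82-fold lower in KD, and it lay between -2.85 and -2.27 when any 1 library was left out.

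Igf2bp3 (ENSMUSG00000029814, chromosome 6, 49085218 to 49215469), which acts with Lin28b in fetal-type blood progenitors of mice, was, like Lin28b, highest in KD replicate 1, at low counts. Its level was 6.44 and 1.47 CPM in KD mice, against 2.78 and 0.593 CPM in KI mice, from 91 and 17 counts in KD and 12 and 5 counts in KI. KD replicate 1 was the highest and the groups overlapped. The log2 fold change of 1.29 ± 1.12 (SE) came to -0.15 without KD replicate 1, and it was 2.89 when KI replicate 1 was left out. Leaving out KI replicate 2 gave 0.62 and leaving out KD replicate 2 gave 1.97. The locus overlaps Malsu1, a pseudogene and a long noncoding RNA in RefSeq, so with the strand of counting unknown its counts are uncertain.

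Igf2bp1 (ENSMUSG00000013415, chromosome 11, 95957163 to 96005944), the most strictly embryonic member, had 0.495 and 1.90 CPM in KD mice, against 8.81 and 1.66 CPM in KI mice, from 7 and 22 counts in KD and 38 and 14 counts in KI. KI replicate 1 was the highest and KD replicate 1 the lowest, and the groups overlapped. The log2 fold change of -2.10 ± 1.14 (SE) came to -0.38 without KI replicate 1. With KI replicate 2 left out it was -2.85, and with KD replicate 1 or 2 left out -1.44 and -3.35. In the same library 10 neural genes, which are mostly silent in blood, had a median of 5.80 CPM, against 0.566 to 1.19 CPM in the other 3, and their part in the Igf2bp1 value was not tested. Igf2bp1 met the filter's level in 1 KD and 2 KI libraries, and Igf2bp3 in 2 KD and 1 KI library, so both entered mainly through 1 genotype.

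The Igf2bp2 to Igf2bp3 count ratio was 0.143 and 0.941 in KD mice, against 2.50 and 11 in KI mice. Transcript length enters such a ratio, so its side of 1 is not read. The 95% intervals of 0.445 to 1.98 in KD replicate 2 and 1.24 to 5.36 in KI replicate 1 overlapped. The Igf2bp1 to Igf2bp3 ratio was 0.0769 and 1.29 in KD mice, against 3.17 and 2.80 in KI mice. The interval of KD replicate 2 (0.656 to 2.6) overlapped those of the KI mice. The 3 genes together came to 7.85 and 4.75 CPM in KD mice and to 18.6 and 8.78 CPM in KI mice.

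Hmga2 (ENSMUSG00000056758, chromosome 10, 120361268 to 120476469), the classical let-7 target of fetal stem cells, was at low counts. It had 1.20 and 1.56 CPM in KD mice, against 6.26 and 2.73 CPM in KI mice, from 17 and 18 counts in KD and 27 and 23 counts in KI. The groups did not overlap. The highest value was that of KI replicate 1, the library with the high neural and receptor counts, and its part in the difference was not tested. The log2 fold change of -1.68 ± 0.78 (SE) was -0.85 without KI replicate 1. RefSeq places 4 long noncoding RNAs and a microRNA over the locus, so its counts too are uncertain without the strand.

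Hmga1 (ENSMUSG00000046711, chromosome 17, 27556574 to 27563672), the family member of dividing cells that adult progenitors keep, had 52.6 and 86.7 CPM in KD mice, against 27.6 and 96.5 CPM in KI mice. The KI mice held both the lowest and the highest value. The log2 fold change was 0.16 ± 0.62 (SE). Its sign depended on single libraries, with -0.35 when KI replicate 1 and -0.24 when KD replicate 2 was left out, but 1.39 when KI replicate 2 and 0.48 when KD replicate 1 was. Reads that align equally well to its retrocopy Hmga1b are counted for neither, so its level may be understated. Hmga1b itself had 3.89 and 6.65 CPM in KD mice, against 2.32 and 9.61 CPM in KI mice, with the order of the libraries the same as for Hmga1.

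Arid3a (ENSMUSG00000019564, chromosome 10, 79927043 to 79955018), a DNA-binding protein of B lineage cells and a let-7 target in fetal B cell development, had the smallest SE of the 8. It had 212 and 253 CPM in KD mice, against 180 and 237 CPM in KI mice, from 2992 and 2933 counts in KD and 775 and 1997 counts in KI. The groups overlapped, with means of 233 ± 29.5 CPM in KD and 208 ± 40.4 CPM in KI (SD, n = 2 each). The log2 fold change was 0.16 ± 0.30 (SE), between 0.02 and 0.43 when any 1 library was left out. Its paralogue Arid3b overlapped likewise, at 32.8 and 17.8 CPM in KD mice and 23.9 and 17.2 CPM in KI mice. Levels of different genes are not ranked against each other here, because exon lengths were not used.

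**Figure D3:**
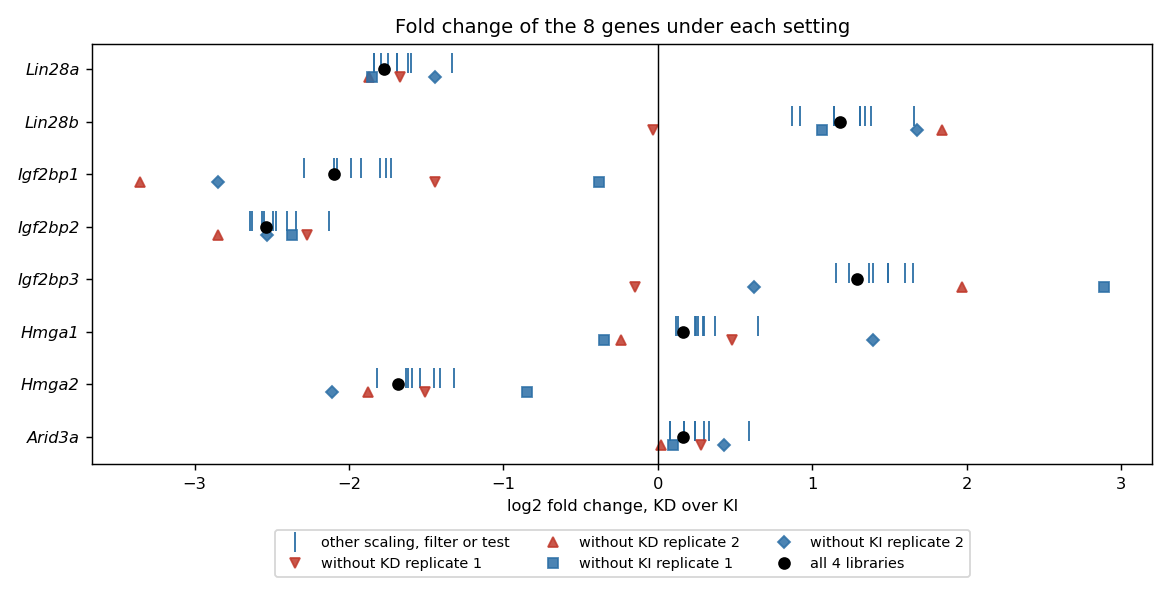
Log2 fold change, KD over KI (x axis), of each of the 8 genes with all 4 libraries (black), without 1 library (coloured symbols) and under other scalings, filters and tests (blue ticks). Lin28a, Igf2bp2 and Hmga2 are negative in each setting shown, as is Igf2bp1, which comes to -0.38 without KI replicate 1, while Lin28b and Igf2bp3 come to -0.03 and -0.15 without KD replicate 1.

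Known let-7 targets centred near the median of all genes. Of 30 measured targets that are not among the 8 genes, 16 had a negative and 14 a positive fold change, with a median of -0.05 beside -0.06 over all genes tested. In edgeR 0 of the 30 were called in either direction. At an unadjusted p under 0.05, 1 was lower and 0 higher (8.34% and 1.29% of all genes tested). Ccnd2, cyclin D2, was that gene, with 13.0 and 12.4 CPM in KD mice, against 31.8 and 48.6 CPM in KI mice (log2 fold change -1.66 ± 0.36, SE). Hic2, a transcriptional repressor, had 7.15 and 8.90 CPM in KD mice, against 10.9 and 31.4 CPM in KI mice, and Dtx2, a ubiquitin ligase, 37.7 and 48.9 CPM in KD mice, against 27.1 and 26.1 CPM in KI mice. Myc, a target of both let-7 and the Igf2bp proteins, had 28.2 and 29.2 CPM in KD mice, inside the KI range of 13.9 and 50.9 CPM.

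Enzymes and cofactors that make, edit or destroy let-7 were as evenly spread. Of 19 measured genes 8 had a negative and 11 a positive fold change, with a median of 0.02. In edgeR 0 were called. At an unadjusted p under 0.05, 0 were lower and 0 higher (8.34% and 1.29% of all genes tested). Tut4, the uridylyltransferase that works with Lin28a on let-7 precursors, had 29.2 and 25.2 CPM in KD mice, against 44.5 and 39.0 CPM in KI mice (log2 fold change -0.62 ± 0.29, SE). Dicer1, which cuts the precursor, had 102 and 114 CPM in KD mice, against 82.1 and 92.9 CPM in KI mice. Trim71, another embryonic let-7 target and an mRNA repressor, had 1.91 and 2.25 CPM in KD mice, against 20.6 and 2.14 CPM in KI mice, so that KI replicate 1 alone stood high, as for Igf2bp1.

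Of 17 measured mRNAs known to be bound by Igf2bp proteins, 10 were negative and 7 positive, with a median of -0.11. In edgeR 0 were called, and 1 was lower at an unadjusted p under 0.05 (8.34% of all genes tested). That gene was Igf2, insulin-like growth factor 2, at 0.637 and 1.30 CPM in KD mice, against 10.7 and 2.02 CPM in KI mice. Btrc, a ubiquitin ligase subunit, averaged 11.5 ± 0.897 CPM in KD mice and 18.5 ± 2.21 CPM in KI mice (SD, n = 2 each). Mki67, the proliferation marker, had 1230 and 1180 CPM in KD mice, against 703 and 853 CPM in KI mice. Of 18 m6A writers, erasers and readers, 8 were negative and 10 positive, with a median of 0.06 and 0 called. Mettl16, an m6A writer of U6 RNA, was the 1 gene lower at an unadjusted p under 0.05 (8.34% of all genes tested). It had 21.9 and 21.9 CPM in KD mice, against 43.6 and 34.8 CPM in KI mice. Ythdc2, a reader, had 51.4 and 52.2 CPM in KD mice, against 42.7 and 25.6 CPM in KI mice, and the writer subunit Mettl14 had 15.9 and 18.6 CPM in KD mice, against 23.4 and 23.6 CPM in KI mice. The 11 measured other HMG proteins had a median of 0.05, with 0 called, and overlapped between the genotypes in each case, including Hmgn2, Hmgn5 and Hmgb3. The 12 measured other ARID proteins had a median of 0.08 with 0 called. Arid1a, a subunit of the BAF chromatin remodeller, had 316 and 214 CPM in KD mice, against 185 and 166 CPM in KI mice, and its paralogue Arid1b had 127 and 112 CPM in KD mice, against 102 and 87.1 CPM in KI mice. Kdm5c, a histone demethylase with an ARID domain, overlapped.

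Imprinted and fetal growth genes, another group of the fetal state, had low KD levels, and KI replicate 1 held the highest value for 8 of the 10 measured genes with a negative fold change, Cdkn1c and Igf2r being the exceptions. Of 11 measured genes 10 had a negative fold change and 8 had both KD libraries below both KI libraries (23.5% of all genes tested), with a median of -2.48. In edgeR 0 were called, and 7 were lower and 0 higher at an unadjusted p under 0.05 (8.34% and 1.29% of all genes tested). Plagl1, a zinc finger regulator of the imprinted gene network, had 0.849 and 1.12 CPM in KD mice, against 12.3 and 9.02 CPM in KI mice (log2 fold change -3.42 ± 0.61, SE). Igf2r, the receptor that clears Igf2, had 6.58 and 3.97 CPM in KD mice, against 23.2 and 131 CPM in KI mice. Meg3, an imprinted noncoding RNA, had 3.40 and 4.49 CPM in KD mice, against 48.5 and 7.12 CPM in KI mice. H19, another, had 1.06 and 0.778 CPM in KD mice, against 5.57 and 1.19 CPM in KI mice. Gnas, the positive member, had 191 and 214 CPM in KD mice, against 145 and 174 CPM in KI mice. Without KI replicate 1 the median of the list was -0.72, and between -2.82 and -2.26 without any other library. The embryonic globins Hbb-y and Hba-x were lower in KD as well. Hbb-y had 2 and 1 counts in KD mice, against 577 and 493 counts in KI mice, and Hba-x had 2 and 2 counts in KD mice, against 26 and 37 counts in KI mice. Neither was called in edgeR, and both had an unadjusted p under 0.05. Both passed the filter on low counts through the KI libraries alone, so nothing is read from these p-values. Their median fold change was -7.24 on the log2 scale, and -6.65 without KI replicate 1. The third, Hbb-bh1, had at most 2 counts in a library.

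**Figure D4:**
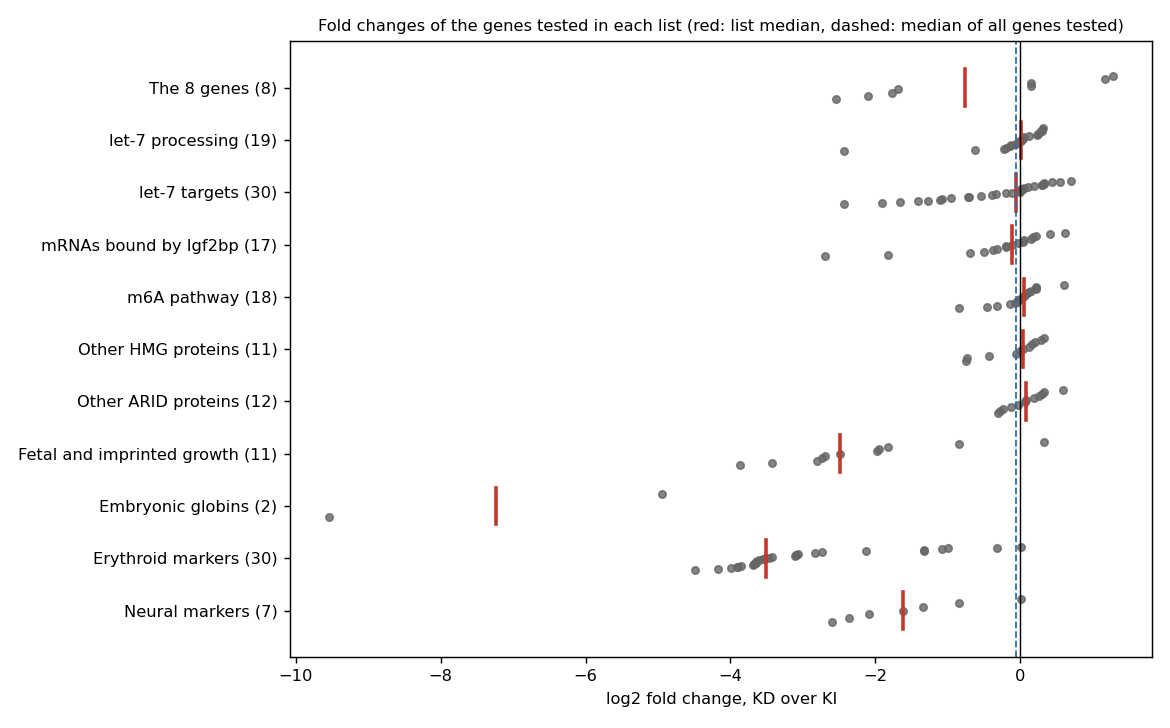
Log2 fold change, KD over KI (x axis), of each gene tested in 11 lists, with the number tested in brackets, the list median in red and the median of all genes tested as a dashed line at -0.06. The let-7, Igf2bp, m6A, HMG and ARID lists centre between -0.11 and 0.08, and the fetal growth genes, embryonic globins and erythroid markers lie to the left.

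The patterns across the 4 libraries were compared by the root mean square difference of centred log2 CPM, over 9632 candidate genes of at least 5 CPM on average. With only 4 libraries this describes a shape and nothing more. Nearest to Lin28a were Il18rap, a subunit of the interleukin 18 receptor (41.0 and 49.1 CPM in KD mice, against 117 and 171 CPM in KI mice, difference 0.0505), Dab2ip, a Ras GTPase-activating protein (0.112), and Ccnd2 (0.117). Nearest to Lin28b were Col5a1, a collagen chain (0.175), Plbd1, a phospholipase B-like protein (0.334), and Dse, an epimerase of dermatan sulphate (0.344). Plbd1 had 125 and 19.7 CPM in KD mice, against 15.1 and 28.5 CPM in KI mice, with the same peak in KD replicate 1. Nearest to Hmga1 were Glul, glutamine synthetase (0.0235), the selenium-binding protein Selenbp1 (0.0312) and Gins4, a replication factor (0.0343). Nearest to Arid3a were Dnal4 (0.00209), the G protein subunit Gnai2 (0.0134) and the mitochondrial ribosomal protein Mrpl37 (0.0148).

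Markers of red cell precursors were lower in KD too, and in bulk RNA fewer cells of a type and less RNA per cell cannot be told apart. Of 30 erythroid markers 29 had a negative fold change and 26 had both KD libraries below both KI libraries (23.5% of all genes tested), and their summed level was 342 to 558 CPM in KD mice and 1350 to 1470 CPM in KI mice. The defining markers Alas2 and Slc4a1 were at 0 in no library. The KD mice differed in many of these genes, with a median over the 30 markers of 4.46 and 0.302 CPM. Slc4a1, the anion exchanger of red cells, was at 21.7 and 0.691 CPM in KD mice, against 142 and 109 CPM in KI mice. Alas2, the first enzyme of haem synthesis in red cells, was at 3.11 and 0.0864 CPM in KD mice, against 18.8 and 23.3 CPM in KI mice. Not every erythroid marker differed in this way between the KD mice, as Fech was at 25.2 and 27.0 CPM and Nfe2 at 133 and 143 CPM. In KI mice Fech was at 29.5 and 73.8 CPM, above both KD mice, and Nfe2 was at 122 and 151 CPM and overlapped. Lin28a was at 8.92 and 10.2 CPM in KD replicates 1 and 2. Igf2bp2 was at 0.920 and 1.38 CPM there, from only 13 and 16 counts. Of 13 measured T cell markers 7 had both KD libraries below both KI libraries (23.5% of all genes tested). The sum over 14 markers was 21.6 to 28.5 CPM in KD mice and 82.1 to 104 CPM in KI mice. Their median log2 fold change was -1.87, and -1.26 without KI replicate 1, and in KI replicate 2 Cd3e alone gave 37.3 of the 82.1 CPM. The defining T cell markers Cd3e and Cd3d were at 0 in no library. Over 12 B cell markers the sum was 22.1 to 26.5 CPM in KD mice and 36.5 to 62.6 CPM in KI mice, with the defining marker Cd79a at 0 in no library. The median log2 fold change of the 5 measured B cell markers was -1.58, but -0.16 without KI replicate 1. Over 12 stroma and endothelium markers the KD sums lay between those of the KI mice, 53.4 and 119 CPM, with Col1a1 and Cdh5 at 0 in no library. Pecam1, which blood cells also make, gave 54.2 and 80.8 CPM of the KD sums, against 35.3 and 36.8 CPM in KI mice. Of the 8 measured stroma and endothelium markers 6 lay below 0 on the log2 scale, and the median of -1.81 became 0.92 without KI replicate 1. The 12 megakaryocyte markers summed to 49.6 to 73.7 CPM in KD mice and 33.5 to 90.4 CPM in KI mice, with a median log2 fold change of -1.23 over the 5 measured, and 0.18 without KI replicate 1. For the neural genes that median was -1.61 over the 7 measured, and -0.38 without KI replicate 1, and for the myeloid markers 0.02 and 0.22. The megakaryocyte genes Gp1bb and Gp5, Emcn of the endothelium and the neural gene Rbfox3 passed the filter on low counts through the KI libraries alone. Such genes pull the medians of these lists towards negative values. The part of red cell precursors and the other cell types in the Lin28a and Igf2bp2 values was not tested.

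**Figure D5:**
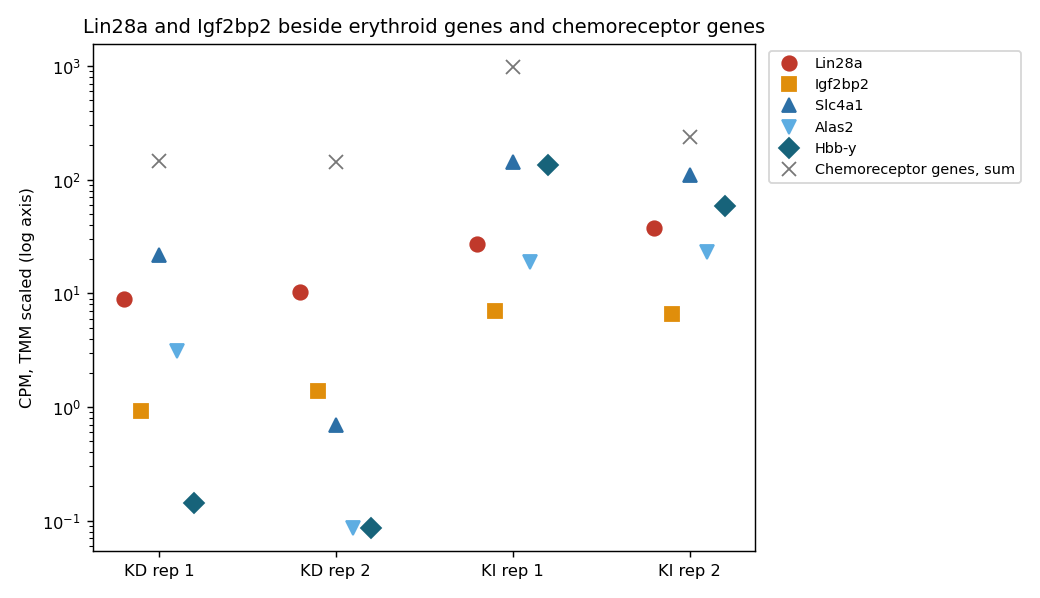
Level in CPM (y axis, log scale) of Lin28a, Igf2bp2, the erythroid genes Slc4a1, Alas2 and Hbb-y, and the sum of 1691 chemoreceptor genes, 1 point per library. Slc4a1 is at 21.7 and 0.691 CPM and Alas2 at 3.11 and 0.0864 CPM in KD replicates 1 and 2. Lin28a is at 8.92 and 10.2 CPM there, and Igf2bp2 at 0.920 and 1.38 CPM, from 13 and 16 counts. In KI mice Slc4a1 is at 142 and 109 CPM and Alas2 at 18.8 and 23.3 CPM. Lin28a is at 27.1 and 37.8 CPM and Igf2bp2 at 6.96 and 6.53 CPM in KI mice. The part of red cell precursors in the Lin28a and Igf2bp2 values was not tested. Hbb-y rests on 2 and 1 counts in the KD libraries. The chemoreceptor sum is highest in KI replicate 1 (979 CPM).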

How the data were processed

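RNA was measured in 4 libraries (TruSeq Stranded mRNA), 1 per mouse, 2 KD and 2 KI. The authors deposited raw counts per Ensembl gene, made with TopHat2 2.0.10, SAMtools and HTSeq on GRCm38, per the submitters' processing notes. For the strand setting and the annotation release nothing is given in the sources used here. Entries that name no gene (no feature, ambiguous, not unique) made up 93.2% to 97.9% of a library and did not enter totals or tests. Of 41214 genes, 40254 matched a symbol. The 8 chromatin libraries are not analysed here, because the 1616 per-sample columns of their tables name neither antibody nor mouse.

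In R 4.3.3, genes were filtered by filterByExpr of edgeR 4.0.16, scaled by TMM (factors 1.19, 1.13, 0.957 and 0.778 for KD replicates 1 and 2 and KI replicates 1 and 2) and tested by glmQLFTest, two-sided, in a model with genotype alone, with p-values adjusted by Benjamini-Hochberg over all 13822 genes. The SE is the fold change divided by the root of the quasi-likelihood F. A count of 3 equals 0.212 to 0.696 CPM. Ratio intervals are exact binomial (Clopper-Pearson). A p-value here reflects the spread between 4 mice and nothing wider. The fit was also run on simulated counts to check the code, with less spread than in these data (common dispersion 0.204). That run gives no measure of the power reached here.

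The members, lists and alternatives were chosen with earlier results of these data known. The genes named are the 8 members, the 3 with the lowest p of each list that is no marker list, 8 further genes fixed by name (such as Gfi1, Myc and Arid3b) and, as likeness, the 3 nearest genes of each member of at least 5 CPM on average, leaving out predicted genes. Hbb-bh1, Gnas, Cdkn1c, Cd34, Pecam1, Fech, Nfe2, Gp1bb, Gp5, Emcn and Rbfox3 were named after their values were seen. Alternatives were other scalings, filters, DESeq2 1.42.0, limma-voom (limma 3.58.1), a replicate block, leaving out the 3 genes that each held over 1% of a library, and leaving out each library. Values of some single marker genes are not reported here.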

Additional observations from a re-analysis of the deposited data

How the results depend on the processing

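EdgeR called 0 genes with all 4 libraries (1331 at an unadjusted p under 0.05), under RLE, upper quartile or library size only scaling, with the filter of at least 5 CPM in 2 libraries and without the 3 most abundant loci. Limma-voom also called 0. EdgeR called 169 of 30472 genes with no low-count filter and DESeq2 142. When 1 library was left out, edgeR called 39 to 787, namely 39 without KD replicate 2, 82 without KD replicate 1, 253 without KI replicate 1 and 787 without KI replicate 2, where a lone mouse is assumed to vary like those of the other genotype. Of the 8 genes, Lin28a was among the calls without KI replicate 1 and with DESeq2, and no other was called in any setting. The labels do not say that equal replicate numbers share a source. The replicate block gave 7 calls, none of them among the 8 genes, and deviations of same-numbered libraries correlated at 0.235 over 13822 genes. Lin28a lay at -1.33 with library size only, which put the median of all genes at 0.37 in place of -0.06, and at -1.87 to -1.44 when 1 library was left out. Lin28b ranged from -0.03 to 1.84 when 1 library was left out. The causes were not tested. Igf2bp1, Igf2bp3 and Hmga2 did not pass the 5 CPM filter. Over the settings that gave values, Lin28a, Igf2bp1, Igf2bp2, Hmga2 and Arid3a kept their sign, Lin28b and Igf2bp3 changed it in 1 setting and Hmga1 in 2. The let-7 target median lay between -0.22 and 0.35, the highest with library size only. Over the 19 targets of at least 20 CPM, a choice made after seeing the data, it was 0.02. Igf2bp1, Igf2bp2, Igf2bp3 and Hmga2 rest on fewer than 100 counts in each library.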
